A study of Rattus norvegicus with 12 samples.

Results

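Integrins are paired alpha and beta subunits that bind the extracellular matrix, and the focal adhesion is the cluster of adaptors, kinases and actin linkers that gathers on their cytoplasmic tails. The set described here is 42 rat genes of this structure, taken from a list: 18 integrin subunits, 2 syndecans, 3 kinases and 19 adaptors and linkers. A listed gene was used where the platform annotation gave a probe set its symbol alone, and its brightest probe set over the RMA columns stood for it. In this way 39 of the 42 genes were measured, out of 14217 genes in all, and Itga2, Itga4 and Itgb8 were not analysed here.

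F111 is an established line of rat (Fischer strain) fibroblasts. The cells were kept for 16 h attached to plastic (A16) or without attachment over agarose (NA16). All were grown in the same serum-containing medium, and total RNA of each state was hybridised to Affymetrix rat arrays. A16 served as the control, and the comparison asks how transcripts of the adhesion machinery stand after 16 h with nothing to adhere to.

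In attached cells, talin and kindlin bind the beta tail and switch the integrin to its binding form. Vinculin, alpha-actinin and the parvins then couple it to actin, and focal adhesion kinase with Src passes the signal on. Fibroblasts that lose contact with the matrix lose this signal, and the form of cell death that may follow is called anoikis. The paper reports that only a minority of the suspended cells were still viable when collected, and that these showed signs of apoptosis. It describes no step that separated living from dead cells before RNA was taken. How far the changes below reflect dying cells was not tested.

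Each state had 3 arrays, labelled biological replicate 1, biological replicate 2 and technical replicate 2. Technical replicate 2 was averaged with biological replicate 1, to which the labels point, so the means and SDs are of n = 2 replicates per state. The labels name these 2 as biological replicates but do not say whether they came from separate cultures. The p-values measure only the spread between these samples. Median RMA intensity lay between 152.5 and 157.9 on the 6 arrays. Over all genes, the SD of the log2 difference between technical replicate 2 and biological replicate 1 was 0.167 in A16. In NA16 it was 0.286, and there the technical array lay nearer to biological replicate 2, at 0.167. If it repeats biological replicate 2 there, the 2 NA16 values share a sample. The NA16 SDs, the intervals and the p-values would then be too small. The replicates differed for the adhesion genes in both states. In A16, biological replicate 1 was the lowest for 18 of the 39 (46.2%, against 27.4% of all genes). Biological replicate 2 was the highest there for 17 (43.6%, against 27.4%). In NA16, biological replicate 2 was the highest for 25 of the 39 (64.1%, against 29.9%). The NA16 array of biological replicate 1 is described on its own. It was the lowest of its state for 25 of the 39 (64.1%, against 37.6% of all genes), and it lay at least 0.5 log2 units below both other NA16 arrays for 10 of them (6.21% of all genes). These 10 were Itga5, Itga7, Itgb4, Itgb5, Sdc1, Src, Tln1, Git1, Tns1 and Zyx, so their values are also given without it where that changes a call. Only technical replicate 2 and biological replicate 2 then remain in NA16. These may be of 1 sample, so a call there may rest on technical spread, and no p-value is printed for it.

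The label of the line was checked against its markers. Of 10 fibroblast markers, 5 were higher and 1 was lower in NA16, and their summed RMA intensity ranged from 95830 to 110000 in A16 and from 80450 to 103800 in NA16. Macrophage markers summed to 2085 to 2373 and to 2139 to 2416, with 2 of 10 higher, Cd68 and Lyz2, and with neither Ptprc nor Csf1r called. Epithelial markers summed to 1384 to 1571 and to 2829 to 3268, with 2 of 8 higher, Krt8 and Epcam. Endothelial markers summed to 849 to 939.1 and to 762.7 to 821.4, with 1 of 6 higher and 1 lower. Muscle and adipocyte markers summed to 1480 to 1583 and to 4641 to 6185, with 3 of 8 higher, Des, Cfd and Myh3. For all genes the shares were 21.9% higher and 16.9% lower. The beta-actin control probe sets were lower in NA16 by 1.21, 1.02 and 0.72 log2 units for the 5′, the middle and the 3′ probe set, and those of Gapdh were 0.19, 0.28 and 0.24 higher. The part of these shifts in the results below was not tested. In bulk RNA, fewer cells of a type and less RNA per cell cannot be told apart.

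Of the 39 adhesion genes, 12 were lower in suspension, 4 were higher and 23 were not called, with an adjusted p below 0.05 as the threshold. The falls comprised Itga3, Itga6, Itga8, Itgb1, Itgb5, Sdc1, Ptk2, Lims1, Parva, Vcl, Actn1 and Tns3, and the rises Itga1, Itgb4, Sdc4 and Tns1. None of the 4 rises was called when the NA16 technical array was averaged with NA16 biological replicate 2. Over all genes 38.9% were called, 16.9% lower and 21.9% higher, so the share called among the adhesion genes (41.0%) lay near the background, while 30.8% were lower and 10.3% higher. Their median log2 change was -0.13 against 0.01 for all genes, and it was -0.07 without NA16 replicate 1, -0.21 without NA16 replicate 2 and -0.07 in the PLIER columns. Only Itga3, Itga6 and Parva among the called genes were at least 2-fold lower (6.12% of all genes), and 0 were at least 2-fold higher (7.74%). The NA16 arrays lay wholly below those of A16 for 14 of the genes and wholly above for 4, where 23.9% and 27.8% of all genes did so (51.7% in either direction). Of the 9 adhesion genes in the dimmest 33.3% of genes, 0 were lower and 1, Itga1, was higher. All genes that dim were lower in 2.22% and higher in 7.41%. Among the 30 brighter ones 12 were lower and 3 higher, or 40.0% and 10.0%, against 24.3% and 29.2% of all genes that bright, with a median of -0.38.

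**Figure D1:**
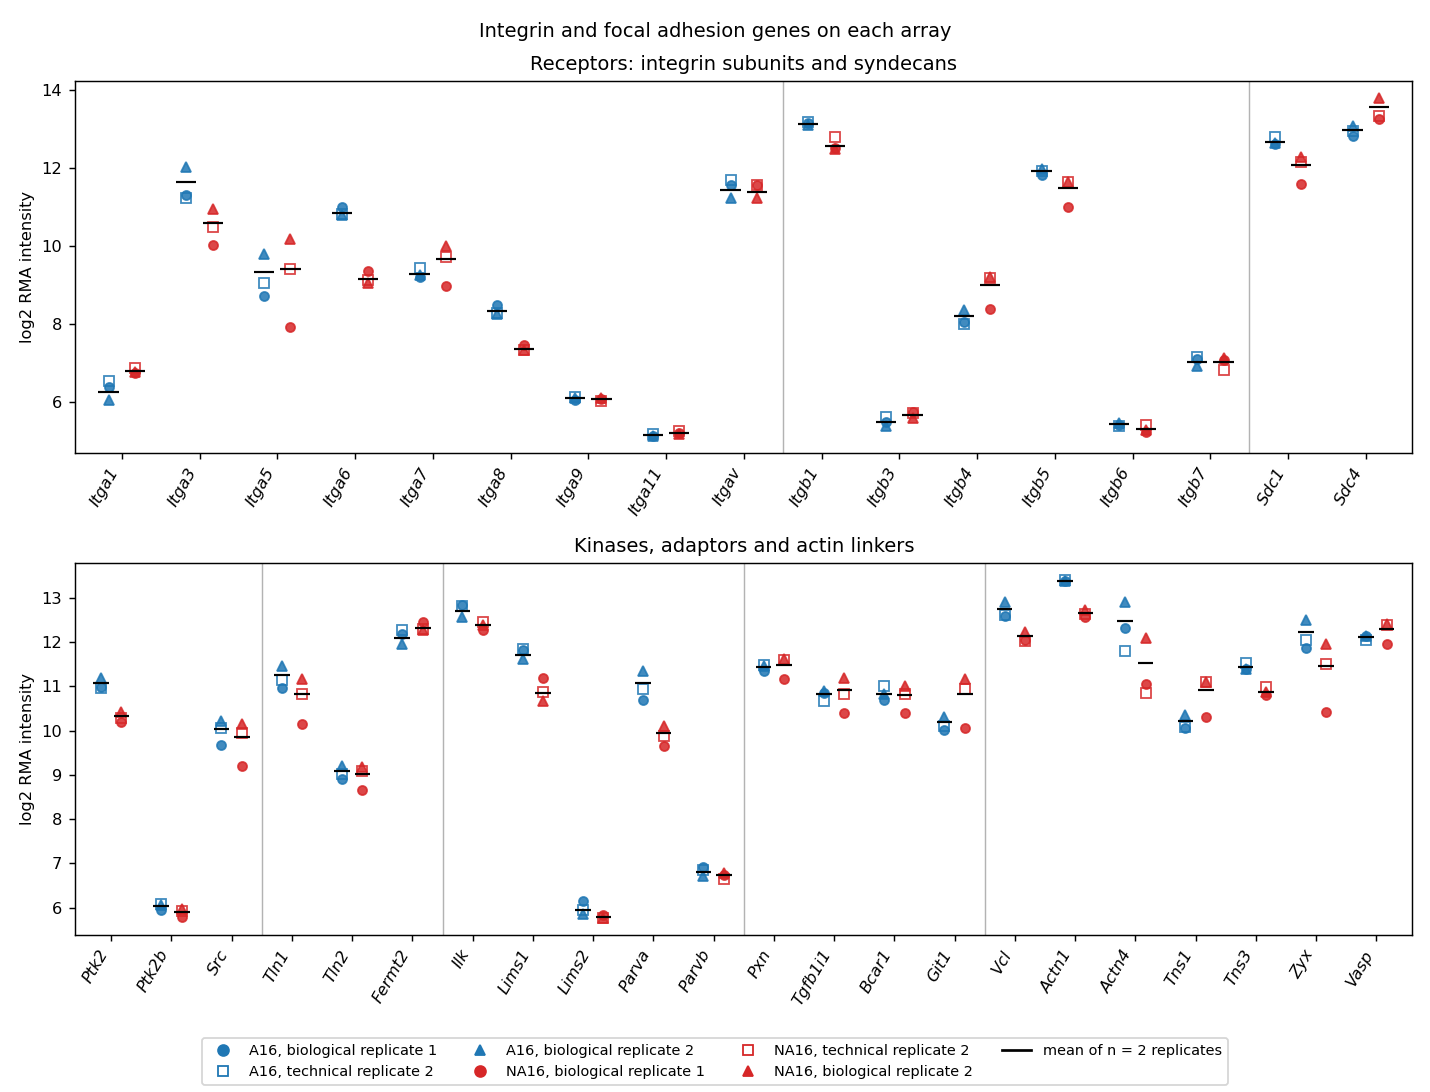
The vertical axis is the log2 RMA intensity of each gene's brightest probe set, with A16 arrays in blue and NA16 arrays in red, a symbol for each replicate, and a black bar for the mean of n = 2 replicates. Grey lines separate the roles; levels of different genes are not comparable. The red symbols of Itga6, Itga8, Ptk2, Actn1 and Tns3 lie below all blue ones, and the red circle of biological replicate 1 is far below the other red symbols for Itga5, Zyx and Tln1.

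The laminin-binding alpha subunits held both of the integrin falls of at least 2-fold. Itga6, which pairs with beta 1 or beta 4 as a laminin receptor, measured 11.01, 10.80 and 10.82 on the A16 arrays of biological replicate 1, biological replicate 2 and technical replicate 2, and 9.36, 9.06 and 9.13 on the NA16 arrays in the same order. The states were far apart, and the fall from 10.85 ± 0.08 to 9.15 ± 0.13 (SD, n = 2) was 3.25-fold, a log2 change of -1.70 (95% confidence interval -1.99 to -1.41, limma adjusted p = 1.23e-04). Of its 3 other probe sets, the 2 bright ones fell by 1.90 and 1.67 log2 units, and the dim one was at -0.11 and was not called. Itga3, the alpha subunit of another laminin receptor, measured 11.30, 12.03 and 11.24 in A16 and 10.03, 10.95 and 10.48 in NA16. All NA16 values were below all A16 values, though each state spread over much of the difference. The log2 change was -1.05 (95% confidence interval -1.76 to -0.33, adjusted p = 0.0302), and it was -0.67 without A16 replicate 2. The call of Itga3 was lost with the technical replicate 2 arrays left out (-1.17, limma adjusted p = 0.0521). It was also lost in the trended robust limma fit (adjusted p = 0.0751). Itga7, the laminin-binding subunit known best from muscle, went from 9.29 ± 0.05 to 9.67 ± 0.47 and was not called (log2 change 0.39, adjusted p = 0.214). With the NA16 array of biological replicate 1 left out it was called higher, at 0.57, on 2 NA16 arrays that may be of 1 sample.

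Among the alpha subunits whose receptors recognise the RGD sequence of fibronectin and vitronectin, Itga8 was lower and Itga5 and Itgav were not called. Itga8 measured 8.48, 8.27 and 8.28 in A16 and 7.47, 7.34 and 7.35 in NA16. The arrays of each state lay close together, and the fall was 1.93-fold (log2 change -0.95, adjusted p = 7.88e-04), with a second probe set at -1.08. Itga5, the alpha subunit of the classic fibronectin receptor, measured 8.71, 9.81 and 9.05 in A16 and 7.92, 10.17 and 9.41 in NA16. The states overlapped, and biological replicate 2 was the highest in both. Its mean change was 0.07 (95% confidence interval -1.10 to 1.25, adjusted p = 0.94). Its direction changed with the replicate, with a value of -0.68 without NA16 replicate 2 and of 0.83 without NA16 replicate 1, for which no test is given. Itgav, the alpha subunit of the vitronectin receptors, was at -0.04 (95% confidence interval -0.46 to 0.38, adjusted p = 0.897) by its brightest probe set. Its other probe sets were at 0.39 and 0.27, neither called.

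Itga1, a collagen-binding subunit, measured 6.39, 6.06 and 6.56 in A16 and 6.76, 6.78 and 6.87 in NA16. Its NA16 arrays lay above those of A16 by a narrow margin, and the rise was 0.53 on the log2 scale (95% confidence interval 0.16 to 0.90, adjusted p = 0.0336). Itga1 was dim, among the dimmest 33.3% of genes. It lost the call without A16 replicate 2 (0.32, adjusted p = 0.14). Itga11, the collagen-binding subunit of fibroblasts, was at 0.05 (95% confidence interval -0.21 to 0.31) and lay in the dimmest part of the array. Itga9, which binds tenascin and other ligands, was at -0.02 (-0.28 to 0.24) and was also dim.

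The beta subunits went both ways. Itgb1, the partner of most of the alpha subunits above, measured 13.15, 13.09 and 13.17 in A16 and 12.50, 12.49 and 12.78 in NA16. The states did not overlap, and the log2 change was -0.56 (95% confidence interval -0.84 to -0.29, adjusted p = 0.00824), with a second probe set at -0.80. Itgb5, a beta partner of alpha v, measured 11.83, 11.96 and 11.91 in A16 and 11, 11.64 and 11.65 in NA16, a change of -0.43 that stood at the threshold (adjusted p = 0.0496). The array of NA16 biological replicate 1 was the low one, and without it the change was -0.27 and was not called. It did not pass either without A16 replicate 1 (adjusted p = 0.106) or without A16 replicate 2 (adjusted p = 0.181). In the PLIER columns Itgb5 was not called either (-0.46, adjusted p = 0.0841). In a separate limma fit over all probe sets with a single symbol, its 2 dimmer probe sets were called lower at -1.12 and -0.92. Its brightest was not called in that fit (adjusted p = 0.0745).

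Itgb4, whose long tail anchors hemidesmosomes in epithelia, was higher. It measured 8.04, 8.37 and 8.02 in A16 and 8.39, 9.21 and 9.18 in NA16, so that the lowest NA16 array was just above the highest A16 array. The log2 change was 0.80 (95% confidence interval 0.36 to 1.24, adjusted p = 0.0125), and it was 0.63 (adjusted p = 0.0739) without A16 replicate 1. Its only alpha partner, Itga6, was the integrin that fell most. The other 3 beta subunits were not called, Itgb3 at 0.19 (95% confidence interval -0.10 to 0.48), Itgb6 at -0.13 (-0.40 to 0.13) and Itgb7 at 0.01 (-0.30 to 0.32). All 3 lay among the dimmest 33.3% of genes, where few genes were called.

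**Figure D2:**
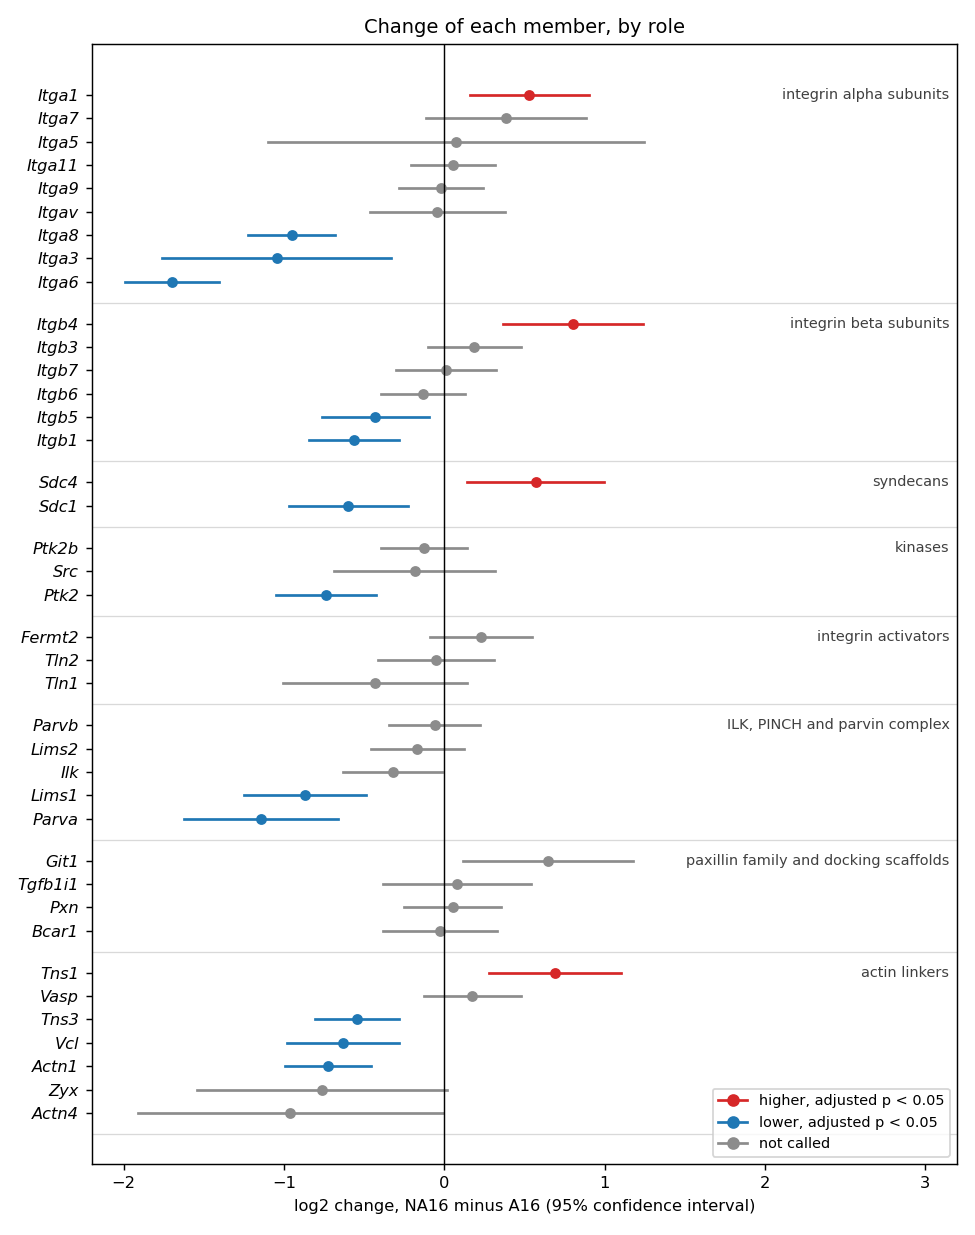
The horizontal axis is the log2 change of NA16 minus A16, with the 95% confidence interval of the limma fit on 2 against 2 replicates, and the genes are ordered by size within each role. Blue marks the 12 genes called lower, red the 4 called higher and grey the 23 not called; the interval of Itga5 runs from -1.10 to 1.25, and those of Actn4 and Zyx are wide as well.

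The syndecans are transmembrane proteoglycans that bind matrix beside the integrins, and syndecan 4 is itself a part of focal adhesions. Sdc1 measured 12.61, 12.63 and 12.80 in A16 and 11.59, 12.27 and 12.14 in NA16, with no overlap and with the low value again on NA16 biological replicate 1. Its log2 change was -0.60 (95% confidence interval -0.97 to -0.23, adjusted p = 0.0205), and a second probe set was at -0.87. Without NA16 replicate 1 the value was -0.40, and the call was lost when A16 replicate 1 (adjusted p = 0.0918) or A16 replicate 2 (adjusted p = 0.0671) was left out. Sdc4 measured 12.82, 13.08 and 12.94 in A16 and 13.26, 13.79 and 13.34 in NA16. The NA16 arrays all lay above those of A16, and the rise was 0.57 (95% confidence interval 0.14 to 1.00, adjusted p = 0.0436). The call of Sdc4 was lost in the PLIER columns (0.50, adjusted p = 0.0688) and without A16 replicate 1 (0.47, adjusted p = 0.189) or A16 replicate 2 (0.67, adjusted p = 0.0806). Without NA16 replicate 2 the value was 0.33. The difference between the syndecans was not tested.

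Of the kinases, Ptk2, which encodes focal adhesion kinase, was lower. It measured 10.98, 11.18 and 10.97 in A16 and 10.19, 10.43 and 10.29 in NA16. The lowest A16 array was above the highest NA16 array, and the fall was 1.67-fold (log2 change -0.74, 95% confidence interval -1.05 to -0.42, adjusted p = 0.0043). A second, dim probe set of Ptk2 was at -0.18 and was not called. Its paralogue Ptk2b, the calcium-responsive PYK2, was dim and at -0.13 (95% confidence interval -0.40 to 0.14). Src, the tyrosine kinase that docks on focal adhesion kinase, was at -0.19 (95% confidence interval -0.69 to 0.32, adjusted p = 0.581). Its 3 other probe sets were at -0.39, -0.54 and -0.39, and none of the 4 was called.

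The integrin activators were not called. Tln1, the talin of most cells, measured 10.96, 11.46 and 11.14 in A16 and 10.14, 11.16 and 10.83 in NA16, which overlapped, and its change was -0.43 (95% confidence interval -1.0 to 0.14, adjusted p = 0.226). The value ranged from -0.09 without NA16 replicate 1 to -0.77 without NA16 replicate 2, and was -0.23 without A16 replicate 2. Its paralogue Tln2 was at -0.05 (95% confidence interval -0.41 to 0.31). Fermt2, the kindlin of fibroblasts, was at 0.23 (95% confidence interval -0.09 to 0.54, adjusted p = 0.253), with the highest A16 array at 12.28 and the lowest NA16 array at 12.27.

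Integrin-linked kinase, PINCH and parvin form a ternary complex that ties beta tails to actin. Of its 5 genes 2 were lower and 0 higher, or 40.0% called, near the 38.9% of all genes (16.9% lower). Parva, which encodes alpha-parvin, measured 10.69, 11.34 and 10.94 in A16 and 9.66, 10.10 and 9.88 in NA16. Biological replicate 2 was the highest array of each state, and the states did not overlap. The fall was 2.21-fold (log2 change -1.14, 95% confidence interval -1.62 to -0.67, adjusted p = 0.00401), and its second probe set was at -1.25. Lims1, which encodes PINCH1, measured 11.83, 11.61 and 11.84 in A16 and 11.19, 10.67 and 10.88 in NA16. Here NA16 biological replicate 1 was the highest of its state, and the fall was 1.82-fold (log2 change -0.87, 95% confidence interval -1.25 to -0.49, adjusted p = 0.00493). A dimmer probe set of Lims1 was at -0.37 and was not called. Ilk itself measured 12.84, 12.57 and 12.83 in A16 and 12.28, 12.39 and 12.45 in NA16. Its arrays did not overlap, but the change of -0.32 (95% confidence interval -0.63 to -0.01) was not called (adjusted p = 0.0977). Among the paralogues, Parvb was at -0.06 (95% confidence interval -0.34 to 0.22) and Lims2 at -0.17 (-0.46 to 0.12), both dim and not called.

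Paxillin and the docking scaffolds, which recruit signalling proteins to the adhesion, were not called. Pxn, which encodes paxillin, was at 0.05 (95% confidence interval -0.25 to 0.35), and its relative Tgfb1i1, or Hic-5, at 0.08 (-0.38 to 0.54). Bcar1, the substrate p130Cas of Src, was at -0.03 (-0.38 to 0.33). Git1, a scaffold for paxillin and the exchange factor beta-PIX, measured 10.01, 10.32 and 10.11 in A16 and 10.06, 11.17 and 10.94 in NA16, and its change was 0.65 (95% confidence interval 0.11 to 1.18, adjusted p = 0.0604). Only the array of NA16 biological replicate 1 lay among the A16 values, and without it the change was 0.86 (adjusted p = 0.00148).

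Of the 7 actin linkers 3 were lower and 1 was higher, or 42.9% and 14.3%, against 16.9% and 21.9% of all genes. Actn1, which encodes the actin crosslinker alpha-actinin 1, measured 13.39, 13.39 and 13.41 in A16 and 12.58, 12.72 and 12.64 in NA16. The 3 A16 arrays were nearly the same, and the fall was 1.65-fold (log2 change -0.73, 95% confidence interval -0.99 to -0.46, adjusted p = 0.00234), with a second probe set at -1.22. Its paralogue Actn4 measured 12.33, 12.90 and 11.81 in A16 and 11.05, 12.10 and 10.85 in NA16. Each state spread over more than the difference, and the change of -0.96 (95% confidence interval -1.91 to -0.01) was not called (adjusted p = 0.107). The value ranged from -0.39 without NA16 replicate 1 to -1.54 without NA16 replicate 2, and was -0.55 without A16 replicate 2. Vcl, which encodes vinculin, measured 12.59, 12.92 and 12.62 in A16 and 12.05, 12.22 and 12.02 in NA16, and its change was -0.63 (95% confidence interval -0.98 to -0.28, adjusted p = 0.0131). Of its other probe sets 1 was at -1.60 and called and 1 at -0.49 and not called. The change was -0.48 (adjusted p = 0.0678) without A16 replicate 2.

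The tensins, which join beta tails to actin filaments, went both ways. Tns3 measured 11.39, 11.39 and 11.54 in A16 and 10.81, 10.88 and 10.98 in NA16. The states did not overlap, and the log2 change was -0.54 (95% confidence interval -0.81 to -0.28, adjusted p = 0.00764), and a second probe set was at -0.85. Tns1 measured 10.05, 10.36 and 10.08 in A16 and 10.32, 11.10 and 11.10 in NA16. Its rise of 0.69 (95% confidence interval 0.28 to 1.10, adjusted p = 0.0178) rested on the 2 upper NA16 arrays, since that of biological replicate 1 lay within the A16 range. A second probe set of Tns1 was at 0.57 and also called. Tns1 did not pass without A16 replicate 1 (0.54, adjusted p = 0.0989), and its value was 0.49 without NA16 replicate 2. The difference between the tensins was not tested. Zyx, the LIM domain protein zyxin, measured 11.86, 12.51 and 12.04 in A16 and 10.42, 11.96 and 11.51 in NA16, and its change of -0.76 (95% confidence interval -1.54 to 0.02) was not called (adjusted p = 0.118). The value ranged from -0.27 without NA16 replicate 1 to -1.26 without NA16 replicate 2, and was -0.48 without A16 replicate 2. Vasp, which promotes actin filament growth, was at 0.17 (95% confidence interval -0.13 to 0.48).

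**Figure D3:**
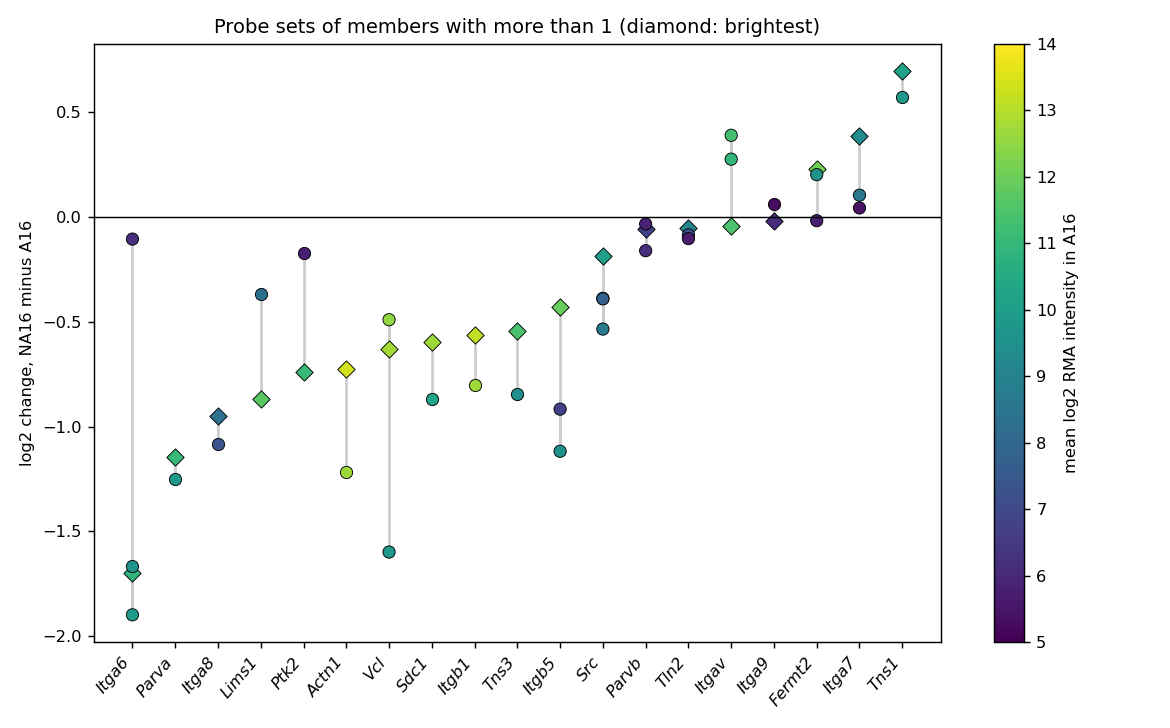
The vertical axis is the log2 change of NA16 minus A16 for every probe set of the adhesion genes that have several, with a diamond for the brightest and the mean log2 RMA intensity in A16 as the colour. The probe sets of Parva, Itga8, Sdc1, Itgb1, Tns3 and Tns1 keep to the same side of zero. Those of Itga6, Ptk2 and Lims1 do so too but differ in size, the dimmest being nearest to zero. In Parva, Itga8, Sdc1, Itgb1, Tns3, Actn1 and Itgb5 the brightest is nearest to zero, and in Vcl the dimmest is furthest from it.

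The calls of the rises depended on how the technical arrays were used. When the technical replicate 2 arrays were left out, 9 genes were lower and 1 was higher. There 4205 of all genes were called, against 5524 in the main comparison. When the NA16 technical array was averaged with NA16 biological replicate 2, which it resembled, 12 were lower and 0 were higher. The number called over all genes was then 4620. In that setting the log2 changes of Itga1, Itgb4, Sdc4 and Tns1 were 0.53, 0.59, 0.44 and 0.50, with limma adjusted p-values of 0.057, 0.16, 0.0856 and 0.221. With the array of NA16 biological replicate 1 left out, 11 were lower and 6 higher, where 6171 of all genes were called. The 2 NA16 arrays of that setting may be of 1 sample, so its counts may rest on technical spread. Actn1, Itga6, Itga8, Itgb1, Lims1, Parva, Ptk2 and Tns3 were called lower in all of the limma alternatives that estimate a variance per gene. Both algorithms called 11 genes lower and 3 higher, and Itgb5 and Sdc4 were called in the RMA columns alone. Under the methods' t-test on the same replicates 0 of the 39 genes and 20 of all 14217 genes passed after Benjamini-Hochberg adjustment. At an unadjusted p below 0.05 the counts were 6 of the 39 and 4643 of the 14217. With a change of at least 2-fold required as well, they were 1 of the 39 and 1809 of the 14217.

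**Figure D4:**
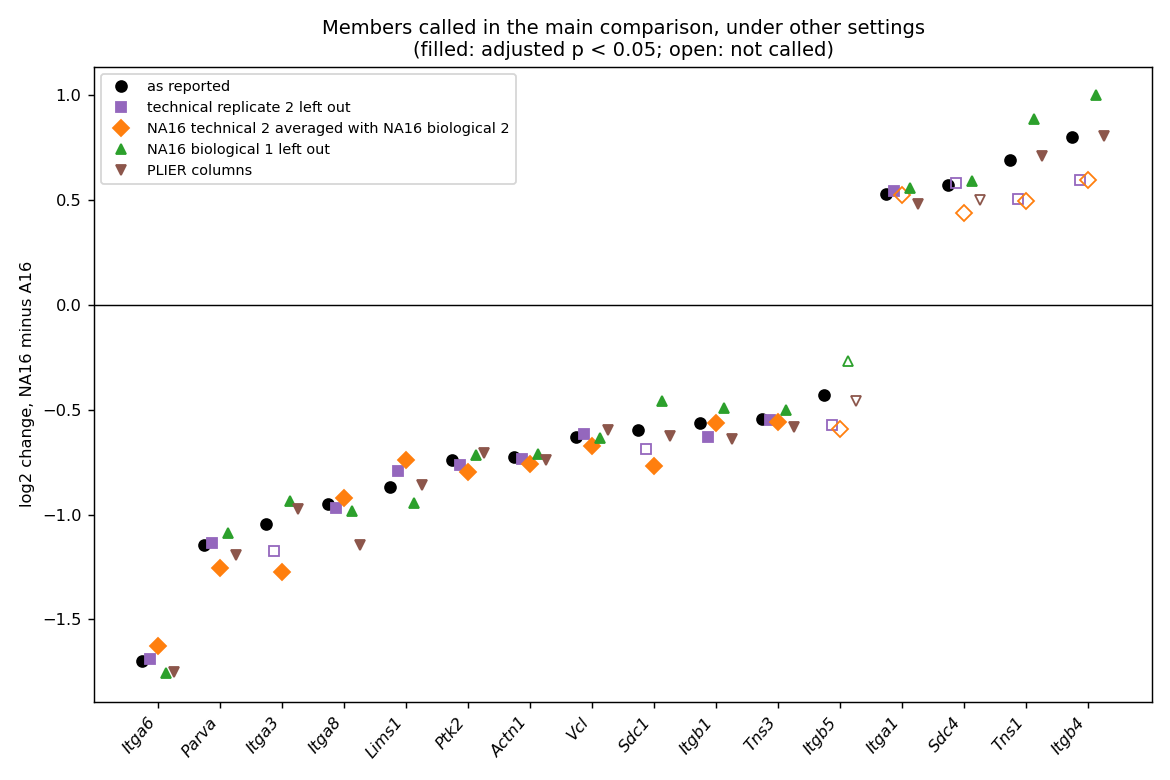
The vertical axis is the log2 change of NA16 minus A16 for the 16 genes called, under 5 settings given in the key, with filled symbols for an adjusted p below 0.05 and open ones above it. All symbols keep to their side of zero; the 4 rises are open where the NA16 technical array is averaged with biological replicate 2, and Itgb5 is filled only as reported.

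The region before the start site was read for 2 motifs known from genes that respond to adhesion and cytoskeletal tension, the core GGAATG of the site bound by TEAD factors and the CArG box bound by serum response factor. Both strands were searched in the 250 bases before the start in RefSeq promoters of the GRCr8 assembly, where 32 of the 42 genes had an entry, and the motifs do not overlap each other. GGAATG or its complement was present in 5 of the 32 (Itga3, Itgb1, Itgb8, Vcl and Zyx) and in 11.8% of 27457 promoters. A CArG box was present in 1 of the 32, Itgb6, and in 1.5% of promoters. A match is a stretch of letters and not a bound site. Of the genes with a match, Zyx and Itgb6 were not called and Itgb8 was not measured. No link between a match and a fall was tested. The windows of the 3 matched genes called lower were chosen by that call. They are shown on the strand of the gene, with the motif in capitals, so that the match can be read in place.
Itga3, chr10:80519004-80519033, minus strand: agtcgcgataGGAATGatggagagggaggg
Itgb1, chr19:73602121-73602150, plus strand: gcggcgcggaGGAATGcgtttccggaggga
Vcl, chr15:3404948-3404977, minus strand: ccctcccttgGGAATGggggcggggcggcg

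Further genes of the adhesion pathway were taken from a list of 92, of which 84 were measured. Of these 9 were higher and 18 lower, or 32.1% called against 38.9% of all genes, with a median log2 change of -0.11. The ligands of the integrins were nearly all uncalled. Of 16 genes for collagens, laminins, fibronectin and the like, 1 was higher and 0 were lower. The rise was that of Lamb2, a laminin beta chain, from 10.37 ± 0.24 to 11.19 ± 0.26 (SD, n = 2; log2 change 0.83, adjusted p = 0.00859).

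Of 32 signalling partners 5 were higher and 8 lower, so that 40.6% were called, near the 38.9% of all genes. Nedd9, a docking protein of the p130Cas family, fell from 9.21 ± 0.28 to 7.45 ± 0.01 (log2 change -1.76, adjusted p = 2.37e-04), whereas Bcar1 of the same family was not called. Pak1, a kinase that acts on the actin cytoskeleton, fell from 11.75 ± 0.13 to 10.01 ± 0.07 (-1.74, adjusted p = 1.13e-04). Ptpn11, the phosphatase SHP2, was lower by 0.98 log2 units (adjusted p = 0.00301). Fyn, a kinase of the Src family, rose from 7.5 ± 0.01 to 8.69 ± 0.03 (1.19, adjusted p = 2.77e-04), where Src itself was not called. Cd81, a tetraspanin that associates with integrins, was higher by 0.58 (adjusted p = 0.00749), and Sos1, an exchange factor for Ras, by 0.54 (adjusted p = 0.0097).

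Of 22 other actin and LIM domain adaptors 3 were higher and 6 lower, or 40.9% called, again near the share of all genes. Flna, which encodes the actin crosslinker filamin A, fell from 13.11 ± 0.10 to 11.66 ± 0.42 (-1.45, adjusted p = 0.00134). Palld, or palladin, was lower by 1.03 (adjusted p = 0.00423) and Pdlim1 by 0.98 (adjusted p = 0.00172). Fblim1, or migfilin, an adaptor that binds kindlin and filamin, rose from 6.60 ± 0.11 to 8.41 ± 0.12 (1.81, adjusted p = 1.09e-04). Tes was higher by 0.47 (adjusted p = 0.0246) and Lasp1 by 0.37 (adjusted p = 0.0483).

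**Figure D5:**
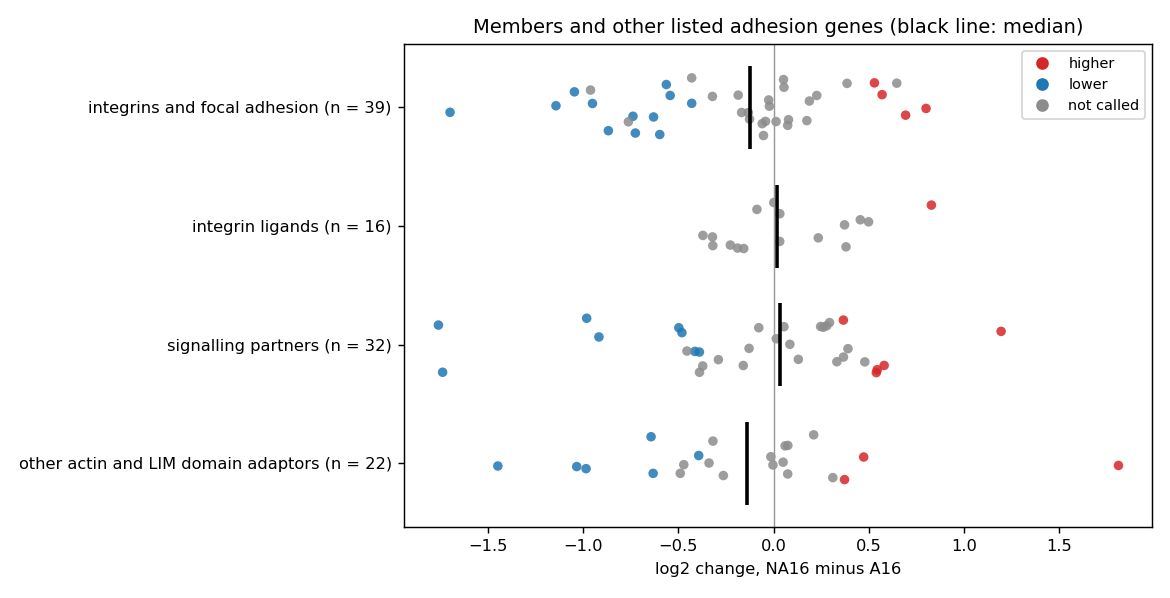
The horizontal axis is the log2 change of NA16 minus A16, with a point per gene, a black line for the median of each list, and points spread vertically only so that they can be seen. Blue points were called lower, red higher and grey not called; the signalling partners and the other adaptors have points of both colours, and the ligands have a single red one.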

How the data were processed

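The authors labelled total RNA of A16 and NA16 cells, hybridised it to Affymetrix rat arrays and normalized the scans in Avadis with RMA and with PLIER (versions: not given in the sources used here). As deposited, the authors' values are linear intensities in 12 columns from 6 arrays. The lowest RMA values were 16.05 to 17.57 and the PLIER columns were bounded at 16, so that dim genes show too small a fold change. The detection calls were left aside.

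Here log2 of the RMA intensity was taken. Of 31042 probe sets that were not controls 20826 carried a single symbol, 436 several and 9780 none, and 20758 matched the RefSeq gene table (GRCr8) by Entrez identifier, which changed 0 symbols. The brightest probe set stood for each of 14217 genes. Technical replicate 2 was averaged with biological replicate 1, and the difference NA16 minus A16 was tested in limma 3.58.1 (lmFit, eBayes; R 4.3.3; 2 residual and 4.78 prior degrees of freedom). P-values were adjusted over the 14217 genes after Benjamini-Hochberg, and 0.05 was the threshold. Calls of the other probe sets of a gene came from a separate limma fit, adjusted over the 20826 probe sets with a single symbol. In that fit the brightest probe sets of Itga1, Itga3, Itgb5 and Sdc4 were not called (adjusted p = 0.0566, 0.0602, 0.0745 and 0.0735). The script was tested on simulated data. All adhesion genes were named by role, and of each further list up to 3 called genes per direction by size of change. Of the further lists, 1 is not reported here on its own. Members and lists were chosen with earlier results of these data known. Alternatives were PLIER, other uses of technical replicate 2, a replicate block, the mean of probe sets, 16 subtracted, dim genes left out, quantile normalization, a trended robust fit, the methods' t-test and each replicate left out. Counts under the methods' t-test are after Benjamini-Hochberg adjustment unless called unadjusted. The authors state a p-value below 0.05 with a 2-fold limit and name no such adjustment. A further 3 were chosen after seeing the data (a constant of 16 added to PLIER values, the NA16 array of biological replicate 1 left out, and the NA16 technical array averaged with NA16 biological replicate 2). The number of arrays limits the precision.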

Additional observations from a re-analysis of the deposited data

How the results depend on the processing

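Across the alternatives the called adhesion genes kept their direction, and 8 of the 16 kept their call under every limma alternative that estimates a variance per gene. Of the 23 genes not called, 17 were never called there. The 12 falls became 0 under the methods' t-test and ranged from 8 to 15 when a replicate was left out. The 4 rises became 1 with the technical replicate 2 arrays left out, 2 with them averaged with biological replicate 2, 0 with the NA16 one alone averaged with NA16 biological replicate 2, 0 under the methods' t-test, and 1 to 6 when a replicate was left out. The median log2 change was -0.38 with the dimmest 33.3% of genes left out, since dim genes lie near zero, and -0.07 to -0.21 when a replicate was left out. Of the further pathway genes, the 18 falls became 0 under the methods' t-test and ranged from 14 to 19 when a replicate was left out. Their 9 rises became 14 with every array as its own replicate and 14 with a random block (consensus correlation -0.0225), 5 with technical replicate 2 left out, 17 without the array of NA16 biological replicate 1, 5 with the NA16 technical array averaged with NA16 biological replicate 2, 0 under the methods' t-test, and 5 to 7 when a replicate was left out. Over all genes 5524 were called, 20 under the methods' t-test (4643 at an unadjusted p below 0.05) and 4460 to 4647 when a replicate was left out. Itga5 (0.07 with all replicates) reversed to -0.68 without NA16 replicate 2 and was 0.83 without NA16 replicate 1. The cause of these shifts was not tested. With the technical replicate 2 arrays left out 4205 of all genes were called, and 5157 with them averaged with biological replicate 2. The number was 4620 with the NA16 one alone so averaged, and 6171 without the array of NA16 biological replicate 1. In that last setting the 2 NA16 arrays may be of 1 sample. Where an A16 replicate was left out, the lone A16 sample was assumed to vary like those of NA16. Without either NA16 replicate, limma's prior degrees of freedom were infinite, so 1 variance common to all genes was used. The counts there (15 lower and 2 higher, and 10 lower and 6 higher) ignore each gene's own spread, and single genes are given in those fits as values with no test.

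The replicate numbers are shared by the states, and the deviations of replicates 1 and 2 from their state means correlated at 0.557 between A16 and NA16 across 14217 genes. With 2 pairs this does not establish pairing, so the block was kept as an alternative. With the replicate block 16 adhesion genes were lower and 5 higher, 28 and 21 of the further pathway genes were lower and higher, and 7019 of all genes were called. Actn4 (adjusted p = 1.07e-04), Zyx (7.65e-04), Tln1 (0.00817), Ilk (0.0337) and Git1 (0.00171) were called by limma only with the block or in a few other settings. With 2 replicates a state, a gene that was not called may still have changed by an amount within its interval. Dim genes near the additive constant have understated changes.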
